A study of Mus musculus with 10 samples.

Results

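The comparison described here is that of livers overexpressing follistatin with control livers in wild-type mice fed a high-fat diet (HFD). It takes the arrays titled HFD with GFP (3) and HFD with FST288 (3), which are 6 of the 10 liver arrays of the series, and all 22180 genes whose transcript clusters carry 1 gene symbol. Total RNA came from livers of fasted wild-type males about 2 weeks after infection with an adeno-associated virus with the TBG promoter, which directs expression to hepatocytes. The virus carried either the control protein GFP or the follistatin isoform FST288, and both groups shared the diet, the fast and the vector. The other 4 arrays came from mice labelled LTKO, with GFP (2) or FST288 (2) in the same vector. Their diet is not stated, so genotype and diet cannot be told apart in any comparison with them, and by background knowledge the name is used for livers without Irs1, Irs2 and Foxo1. The labels give no age and leave unsaid whether every array had its own mouse, so the p-values reflect how these samples vary, which may be in part technical. All values are log2 RMA values, a difference between groups is called a change, and a change of 1 is a 2-fold difference.

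Follistatin is a secreted glycoprotein that binds activins and related ligands of the TGF-beta family with high affinity and keeps them from their receptors. Activins signal through type II and type I receptor kinases to SMAD2 and SMAD3, while the related bone morphogenetic proteins signal to SMAD1, SMAD5 and SMAD8. The FST288 isoform binds cell-surface heparan sulphate and therefore stays largely near the cells that make it. Liver is a main source of circulating follistatin, and its gene is known to respond to fasting, glucagon and insulin through FoxO1.

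The liver label was read against 11 measured hepatocyte markers, whose median level was 12.17 to 12.41 on the 6 HFD arrays, against a median over all genes of 3.10 to 3.14. FST288 replicates 2 and 3 stood apart in another way, because they carried transcripts of pancreatic acinar cells, the enzyme-secreting cells of the exocrine pancreas. The median of the 27 measured acinar markers was 2.34, 2.44 and 2.31 on GFP replicates 1 to 3 and 2.38 on FST288 replicate 1, but 5.78 on replicate 2 and 4.74 on replicate 3. Cpb1, a pancreatic carboxypeptidase, read 2.22, 1.90 and 2.17 on the GFP arrays and 2.52, 9.31 and 8.36 on the FST288 arrays. Ctrb1, chymotrypsinogen, read 4.34, 3.83 and 3.79 on the GFP arrays and 4.28, 9.89 and 8.58 on the FST288 arrays, and Cel, the bile-salt-stimulated lipase, read 2.27, 2.44 and 1.98 on the GFP arrays and 2.47, 8.29 and 7.32 on the FST288 arrays. These transcripts were low on the control arrays and on FST288 replicate 1, and high on FST288 replicates 2 and 3. The acinar transcription factors Ptf1a, Bhlha15 and Rbpjl stayed between 2.0 and 4.10 on all 6 arrays, and the proteases Try5 and Ctrc between 1.60 and 3.13. No acinar marker passed the test between the groups (lowest adjusted p = 0.0807, Klk1, limma), while 21 of the 27 had an unadjusted p under 0.05.

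The split was then read over all genes. On both FST288 replicates 2 and 3, 21 genes (0.0947% of those tested) lay at least 1 above each of the other 4 HFD arrays, and 0 genes lay at least 1 below. Of the 21, 16 are on the acinar list, and the others are 2210010C04Rik, Akp3, Dmbt1, Gm5409 and Olfr535, which were named after their values were seen. Each of the other 14 marker lists, for islet, bile duct, adipocyte, immune, stromal, endothelial, erythroid, muscle, kidney and adrenal, intestinal and hepatocyte transcripts, had 0 members in that set. The acinar arrays were thus 2 of the 3 FST288 arrays and 0 of the GFP arrays, and every result below is read with that in view. The changes were recomputed with the mean level of the acinar markers as a term in the model, called the acinar term, and again without FST288 replicates 2 and 3, which leaves 1 FST288 array assumed to vary like the other groups.

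**Figure D1:**
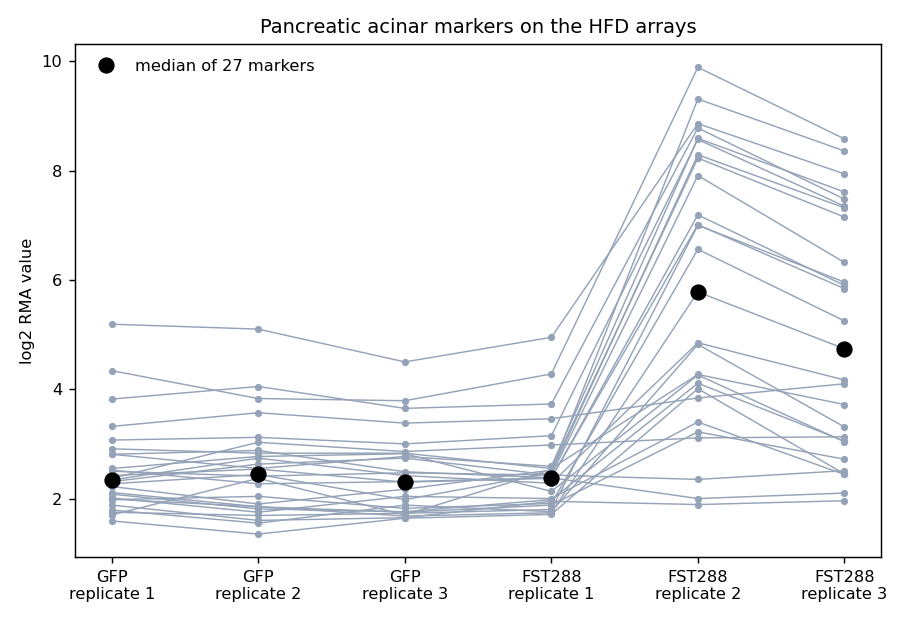
Level (log2 RMA value) of each of 27 pancreatic acinar markers on the 6 HFD arrays, with a grey line joining the points of 1 marker and the median over the markers in black. The medians are 2.31 to 2.44 on the GFP arrays and FST288 replicate 1, and 5.78 and 4.74 on FST288 replicates 2 and 3.

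Livers with FST288 had lower transcripts of Csad (taurine synthesis), Srebf1 and Hmgcs1 (lipid and sterol synthesis), Oat (ornithine use) and Cyp3a11 (drug metabolism). They had higher transcripts of Fst itself, the transcription factors Onecut1 and Zbtb16, and the lipid genes Cyp4a12a, G0s2 and Lpin1. With FST288, 221 genes differed from GFP (0.996% of the genes tested; limma, Benjamini-Hochberg adjusted p under 0.05), of which 128 were higher (0.577%) and 93 lower (0.419%). The median change was 0.63 for the higher and -0.71 for the lower genes, and 33 genes moved by at least 1. In all 221 the FST288 and GFP arrays did not overlap, and FST288 replicate 1 lay outside the GFP range on the same side. Over all genes, 9.3% lay above and 9.11% below without overlap. The test that picked the 221 genes favours such separation, so it is no further support, here or for single called genes below. Every count of called list members below is to be read against the shares over all genes, 0.577% higher and 0.419% lower. The split into higher and lower moved with the scaling, to 102 and 115 when the named genes were quantile normalized again. Leaving out 1 array left 80 to 307 genes called, and 63 of the 221 (33 higher and 30 lower) were called in all 10 such fits. The count was 80 without FST288 replicate 2, 91 without FST288 replicate 3, 122, 129 and 99 without GFP replicates 1, 2 and 3, and 217 without FST288 replicate 1.

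With the acinar term 35 genes (0.158%) were called, 25 higher (0.113%) and 10 lower (0.0451%), and 30 of them were among the 221. All 221 genes kept their direction, and in 209 the change stayed within 1.5 times its value. In the other 12 it shrank by more. Acinar level was high on FST288 replicates 2 and 3 alone, so this fit rests largely on replicate 1 against GFP. For Csad it gave -1.98, where replicate 1 stood -2.01 from the GFP mean. Replicate 1 lay on the called side of GFP in all 221, so the kept direction is no separate check. The fit is also less precise, so a lost call need not mean a smaller change. The 30 held 22 higher genes, among them Fst, Inhba, Onecut1, Zbtb16, E2f8, Lpin1, G0s2, Cyp4a12a, Slc25a30, Cyp2c29 and Sult1a1, and 8 lower genes, namely Csad, Hmgcs1, Cyp3a11, Etnppl, Oat, Itih3, Colec12 and Rnf125. Without FST288 replicates 2 and 3, 6 genes (0.0271%) were called, 4 higher (0.018%) and 2 lower (0.00902%), all among the 221: Csad, Cyp4a12a, Fst, Itih3, Retsat and Slc25a30. Fst then stood 1.53 above GFP (adjusted p = 0.00692) and Csad -2.01 from it (adjusted p = 0.00125). The values of FST288 replicate 1, the acinar-low array, are therefore given beside the others wherever array values are printed. Genes given by a change alone can differ between replicate 1 and replicates 2 and 3. From the GFP mean, Mug-ps1 stood -1.31 on replicate 1 and -2.15 over replicates 2 and 3, and Apobec1 0.76 and 0.51. The part of acinar RNA in a gene's change was not tested beyond these fits.

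**Figure D2:**
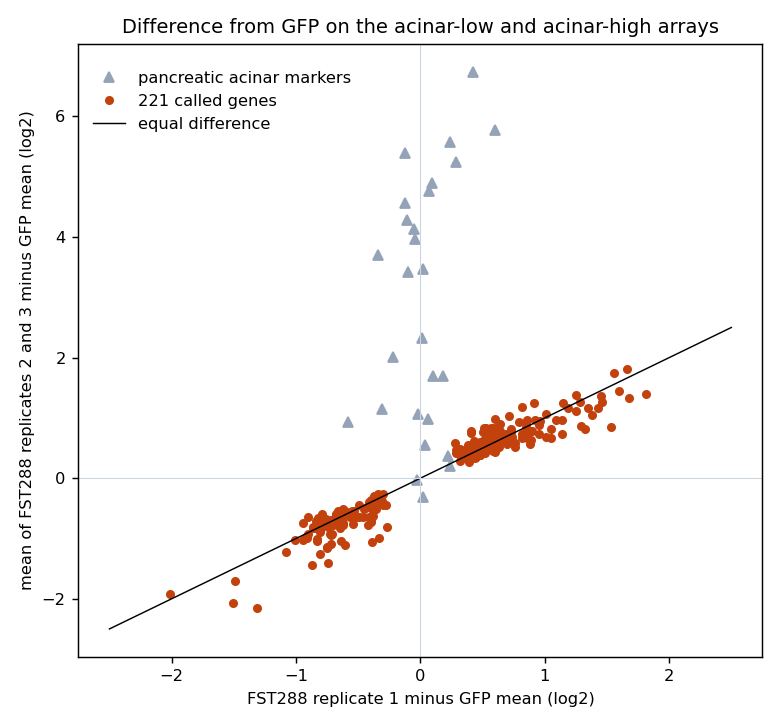
Difference from the GFP mean (log2) of FST288 replicate 1 on the horizontal axis and of the mean of FST288 replicates 2 and 3 on the vertical axis, for the 221 called genes and 27 acinar markers, with a line of equal difference. The called genes lie along the line, on the same side of 0 on both axes, a pattern their selection as called genes favours, and most acinar markers lie far above the line near 0 on the horizontal axis.

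Follistatin and its ligands were read first. Fst (transcript cluster 17296344) read 5.34, 5.25 and 5.22 on the GFP arrays and 6.80, 5.78 and 6.45 on the FST288 arrays. Every FST288 array was above every GFP array, with replicate 1 highest and replicate 2 lowest. It rose by 1.08 ± 0.19 (SE, adjusted p = 0.015), 2.11-fold higher, and with the acinar term the change was 1.60 (adjusted p = 0.0036). The cluster may read transcripts of the vector and of the mouse gene alike. Inhba, which encodes the activin A subunit that follistatin binds, read 5.43, 4.99 and 5.27 on the GFP arrays and 6.55, 5.81 and 6.27 on the FST288 arrays. It rose by 0.98 ± 0.18 (SE, adjusted p = 0.0182), with the FST288 arrays in the same order as for Fst. That order, replicate 1 above 3 above 2, is the reverse of the order of their acinar medians. Among the 221 called genes 54 took it (26 of the 128 higher genes), while 30 took the order of the acinar medians. The share of all genes with either order was not counted, so the shared order of Fst and Inhba is not read as a result. Once the acinar term was added, Inhba changed by 1.37 (adjusted p = 0.0224). The call of Fst was lost without GFP replicates 1, 2 or 3 or FST288 replicate 3 (adjusted p from 0.0511 to 0.0955). The call of Inhba was lost without GFP replicates 2 or 3 or FST288 replicates 1 or 3 (adjusted p from 0.0575 to 0.103).

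The other ligands did not pass the test, as 1 of 17 measured activin and BMP ligands was called. Inhbe and Inhbc, activin subunits made mainly by liver, had changes of -0.39 ± 0.12 and -0.39 ± 0.14 (SE; adjusted p = 0.16 and 0.265). Inhbb, the activin B subunit, had a change of 0.36 ± 0.23 (adjusted p = 0.604). Of 14 binding proteins and antagonists, Fst alone was called, and Fstl3, a follistatin-like antagonist, had a change of 0.04 ± 0.14 (adjusted p = 0.953). Of 20 receptors and SMADs, 0 were called by limma (4 at an unadjusted p under 0.05), and their changes ran from -0.45 to 0.38. The 2 with the lowest p were Bmpr2, a type II BMP receptor (-0.28 ± 0.08, adjusted p = 0.137), and Tgfbr2, the type II TGF-beta receptor (0.38 ± 0.11, adjusted p = 0.16).

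Among 18 genes known to respond to activin or BMP, 1 was higher and 2 were lower, with a median change of -0.04 against 0.00 over all genes. Hamp, the iron hormone hepcidin and a BMP target, read 12.38, 12.55 and 12.53 on the GFP arrays and 12.15, 11.32 and 11.67 on the FST288 arrays, and fell by 0.77 ± 0.17 (SE, adjusted p = 0.0456). Atoh8, a BMP-responsive transcription factor, read 5.36, 4.94 and 5.22 on the GFP arrays and 4.38, 4.47 and 4.68 on the FST288 arrays, and fell by 0.66 ± 0.14 (SE, adjusted p = 0.0364). FST288 lay below GFP without overlap in both, and Hamp was lower on replicates 2 and 3 than on replicate 1. Cdkn1a, the cell cycle inhibitor p21, read 4.09, 5.09 and 4.35 on the GFP arrays and 5.79, 5.79 and 5.78 on the FST288 arrays, and rose by 1.27 ± 0.26 (SE, adjusted p = 0.031). With the acinar term the changes were -0.30 (adjusted p = 0.795) for Hamp, -0.75 (adjusted p = 0.337) for Atoh8 and 1.27 (adjusted p = 0.43) for Cdkn1a. The call of Hamp was lost without GFP replicates 1, 2 or 3 or FST288 replicates 2 or 3 (adjusted p from 0.11 to 0.191). The calls of Atoh8 and Cdkn1a were lost without GFP replicates 1 or 3 or FST288 replicates 1, 2 or 3 (adjusted p from 0.0719 to 0.16).

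**Figure D3:**
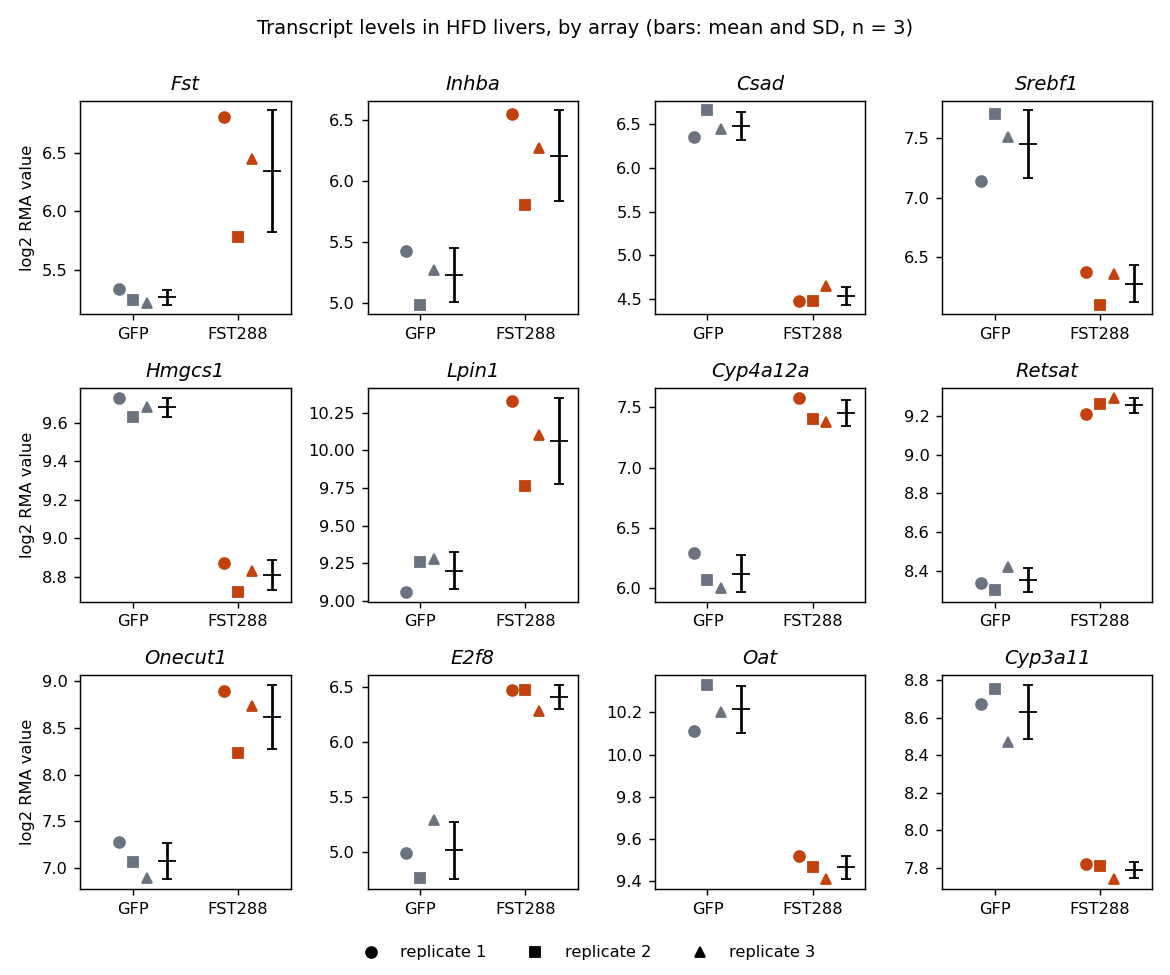
Levels (log2 RMA values) of 12 called genes on each HFD array, GFP in grey and FST288 in orange, with the marker shape giving the replicate number and black bars the mean and SD (n = 3). The groups do not overlap in any panel, and Fst, Inhba, Lpin1 and Onecut1 are highest on FST288 replicate 1 and lowest among the FST288 arrays on replicate 2.

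Lipid synthesis genes moved in both directions. Of 26 measured genes of fatty acid and triglyceride synthesis, 4 were lower and 1 was higher, with a median change of -0.04. Without overlap, 9 of the 26 lay below and 8 above GFP, against 9.11% and 9.3% of all genes. Srebf1, which encodes the lipogenic transcription factor SREBP-1, read 7.14, 7.70 and 7.51 on the GFP arrays and 6.37, 6.10 and 6.36 on the FST288 arrays. All 3 FST288 arrays were below all GFP arrays, and it fell by 1.17 ± 0.14 (SE, adjusted p = 0.00108), 2.26-fold lower. Lower as well were Gpam, which makes lysophosphatidic acid for triglycerides, Elovl5, which lengthens polyunsaturated fatty acids, and Mid1ip1, an activator of acetyl-CoA carboxylase. They changed by -0.54 ± 0.12, -0.58 ± 0.09 and -0.73 ± 0.15 (SE; adjusted p = 0.0439, 0.009 and 0.0324). Over the mean of its clusters Mid1ip1 had a change of -0.18 (adjusted p = 0.655).

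Lpin1, which makes diacylglycerol and also acts as a coactivator in fasting, went the other way. It read 9.06, 9.26 and 9.28 on the GFP arrays and 10.33, 9.76 and 10.10 on the FST288 arrays, and rose by 0.86 ± 0.15 (SE, adjusted p = 0.0118). FST288 replicate 1 was highest and replicate 2 lowest of the 3, and no FST288 array overlapped GFP. Of 18 genes of cholesterol synthesis and uptake, Hmgcs1, an early enzyme of the pathway, was called lower. It read 9.73, 9.63 and 9.68 on the GFP arrays and 8.87, 8.72 and 8.83 on the FST288 arrays, a separation of the groups many times the spread within them, and fell by 0.87 ± 0.08 (SE, adjusted p = 0.000179). The median of the 18 was -0.12, but 0.08 on FST288 replicate 1 and -0.22 over replicates 2 and 3, and 0.06 with the acinar term. The part of acinar RNA in that median was not tested beyond these values.

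In the fit with the acinar term, the changes were -1.05 (adjusted p = 0.0786) for Srebf1, -0.80 (adjusted p = 0.0184) for Hmgcs1 and 1.17 (adjusted p = 0.0224) for Lpin1. For Gpam, Elovl5 and Mid1ip1 they were -0.54 (adjusted p = 0.47), -0.38 (adjusted p = 0.411) and -0.89 (adjusted p = 0.203). The call of Gpam was lost without GFP replicates 2 or 3 or FST288 replicates 1, 2 or 3 (adjusted p from 0.0912 to 0.202). The call of Elovl5 was lost without GFP replicates 2 or 3 (adjusted p from 0.05 to 0.0522). The call of Mid1ip1 was lost without any 1 of the 6 HFD arrays (adjusted p from 0.0757 to 0.125). The call of Lpin1 was lost without GFP replicate 1 or FST288 replicate 3 (adjusted p from 0.0637 to 0.0745). Srebf1 and Hmgcs1 kept their calls when any 1 of the 10 arrays was left out.

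Hmgcs1 and Gpam, which both fell, are the lower genes whose upstream sequence holds the sterol regulatory element core TCACCCCA, the letters bound by SREBP proteins, and their 250 bases before the start site are printed for that reason. Sequences are from RefSeq on GRCm38.p6, 5′ to 3′ on the gene's strand, with the core in capitals (Hmgcs1 chr13:119690101-119690350, plus strand; Gpam chr19:55127239-55127488, minus strand).
Hmgcs1: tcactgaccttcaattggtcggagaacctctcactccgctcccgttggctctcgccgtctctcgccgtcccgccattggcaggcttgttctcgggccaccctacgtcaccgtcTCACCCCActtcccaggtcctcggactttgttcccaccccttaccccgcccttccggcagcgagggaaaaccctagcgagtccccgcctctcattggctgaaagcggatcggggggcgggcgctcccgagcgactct
Gpam: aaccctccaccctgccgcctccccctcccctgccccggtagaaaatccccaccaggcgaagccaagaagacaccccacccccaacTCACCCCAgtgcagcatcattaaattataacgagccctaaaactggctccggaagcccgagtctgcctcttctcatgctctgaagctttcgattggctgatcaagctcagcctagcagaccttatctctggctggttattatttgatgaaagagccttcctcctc
The core begins 137 bases before the Hmgcs1 start and 165 before the Gpam start, on the coding strand of both. Gpam has another listed window without it. Searched on both strands, the core was in 2 of 60 lower genes with a window (3.33%), 2 of 97 higher genes (2.06%, Ces3b and Ces4a) and 1.54% of all 27025 genes. The match describes these letters and shows no binding.

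Called members of the lipid droplet and fatty acid oxidation lists were mostly higher, and in the oxidation list the higher ones were of the Cyp4a family alone. G0s2, an inhibitor of the triglyceride lipase ATGL, read 5.72, 5.93 and 5.76 on the GFP arrays and 6.95, 6.82 and 6.73 on the FST288 arrays, and rose by 1.03 ± 0.12 (SE, adjusted p = 0.00119), but by 0.59 over the mean of its clusters (adjusted p = 0.0254). Plin5, a droplet coat protein of oxidative tissues, read 6.43, 6.03 and 6.36 on the GFP arrays and 7.16, 6.88 and 6.80 on the FST288 arrays, and rose by 0.67 ± 0.12 (SE, adjusted p = 0.0186). These were 2 of 18 lipid droplet genes, with 0 lower, and neither overlapped between the groups. Without overlap, 7 of the 18 lay above and 1 below GFP, against 9.3% and 9.11% of all genes. Of 29 genes of fatty acid oxidation and ketogenesis, 10 lay above and 6 below without overlap. Called were 3 higher and 1 lower, against 0.577% and 0.419% of all genes. The 3 were omega-hydroxylases of the Cyp4a family: Cyp4a12a, Cyp4a14 and Cyp4a31. No other oxidation or ketogenesis gene of the list was called higher.

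Cyp4a12a read 6.29, 6.07 and 6.0 on the GFP arrays and 7.58, 7.40 and 7.38 on the FST288 arrays, and rose by 1.33 ± 0.11 (SE, adjusted p = 0.000114). Cyp4a31 changed by 1.18 ± 0.22 and Cyp4a14 by 0.63 ± 0.11 (SE; adjusted p = 0.0186 and 0.0141). The probes of these similar genes may share targets, so they are not independent. Abcd2, a peroxisomal transporter of very long chain fatty acids, was the lower gene, at -1.25 ± 0.24 (adjusted p = 0.0242). With the acinar term the changes were 1.13 (adjusted p = 0.0304) for G0s2, 0.86 (adjusted p = 0.0793) for Plin5, 1.45 (adjusted p = 0.0036) for Cyp4a12a, 1.16 (adjusted p = 0.357) for Cyp4a31, 0.38 (adjusted p = 0.5) for Cyp4a14, and -0.80 (adjusted p = 0.629) for Abcd2. The call of Plin5 was lost without GFP replicates 2 or 3 or FST288 replicates 1 or 2 (adjusted p from 0.0553 to 0.0813). The call of Cyp4a14 was lost without GFP replicates 1, 2 or 3 or FST288 replicates 2 or 3 (adjusted p from 0.0505 to 0.0621). The call of Cyp4a31 was lost without GFP replicates 2 or 3 or FST288 replicates 1, 2 or 3 (adjusted p from 0.054 to 0.0973). The call of Abcd2 was lost without GFP replicates 2 or 3 or FST288 replicates 2 or 3 (adjusted p from 0.099 to 0.12).

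Of 21 lipoprotein genes, 2 were higher and 3 lower, against 0.577% and 0.419% of all genes. Without overlap, 6 of the 21 lay above and 9 below GFP, against 9.3% and 9.11% of all genes. Sort1, a sorting receptor linked to VLDL secretion, read 5.59, 5.46 and 5.75 on the GFP arrays and 4.68, 4.64 and 4.61 on the FST288 arrays, and fell by 0.96 ± 0.13 (SE, adjusted p = 0.0025), but over the mean of its clusters the change was -0.44 (adjusted p = 0.138). Apoa1, the main HDL protein, and Pltp, which moves phospholipid between lipoproteins, changed by -0.40 ± 0.07 and -0.63 ± 0.13 (SE; adjusted p = 0.0145 and 0.0368). Mttp, which loads lipid on apolipoprotein B, and Apobec1, which edits its mRNA, changed by 0.48 ± 0.09 and 0.59 ± 0.12 (adjusted p = 0.0201 and 0.0272). When acinar marker level was a term, Pltp had a change of -0.30 (adjusted p = 0.762), and none of the 5 was called (adjusted p = 0.101 for Sort1, 0.441 for Apoa1, 0.357 for Mttp and 0.141 for Apobec1). The call of Apoa1 was lost without GFP replicates 1 or 2 or FST288 replicates 2 or 3 (adjusted p from 0.0538 to 0.106). The call of Pltp was lost without GFP replicates 1, 2 or 3 or FST288 replicates 2 or 3 (adjusted p from 0.107 to 0.196). The call of Mttp was lost without GFP replicates 1 or 2 or FST288 replicates 1, 2 or 3 (adjusted p from 0.0546 to 0.121). The call of Apobec1 was lost without any 1 of the 6 HFD arrays (adjusted p from 0.0718 to 0.114).

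The called genes of the glycolysis, glucose production and FoxO lists were higher with FST288, and over all genes 0.577% were called higher. Txnip, an alpha-arrestin that limits glucose uptake and binds thioredoxin, read 7.13, 6.49 and 6.92 on the GFP arrays and 8.0, 8.05 and 8.15 on the FST288 arrays. Its FST288 arrays lay above all GFP arrays and close together, and it rose by 1.22 ± 0.16 (SE, adjusted p = 0.00216). Khk, the first enzyme of fructose use, read 9.89, 9.82 and 9.88 on the GFP arrays and 10.41, 10.39 and 10.33 on the FST288 arrays, and rose by 0.51 ± 0.08 (SE, adjusted p = 0.009), as 1 of 14 glycolysis and fructose genes. Their median was 0.24, and 8 of the 14 lay above GFP without overlap and 0 below, against 9.3% and 9.11% of all genes. Ppp1r3c, which brings a phosphatase to glycogen, changed by 0.64 ± 0.13 (SE, adjusted p = 0.0262), as 1 of 19 genes of glucose production and glycogen.

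The gluconeogenic genes G6pc and Pck1 had changes of 0.25 ± 0.14 and -0.01 ± 0.10 (SE; adjusted p = 0.525 and 0.985). Igfbp1, an insulin-repressed secreted protein, had a change of -0.09 ± 0.24 (adjusted p = 0.92). Of 23 insulin signalling components, 0 were called by limma (1 at an unadjusted p under 0.05), with changes from -0.29 to 0.24. Irs1, Irs2 and Foxo1 had changes of -0.10 ± 0.14, 0.07 ± 0.22 and 0.12 ± 0.11 (adjusted p = 0.843, 0.935 and 0.748). Of 21 FoxO-responsive genes other than Fst, 4 were higher: Txnip, Angptl4, Mttp and Cdkn1a. Angptl4, an inhibitor of lipoprotein lipase, read 7.60, 7.62 and 7.63 on the GFP arrays and 8.15, 8.21 and 8.01 on the FST288 arrays, and rose by 0.51 ± 0.09 (SE, adjusted p = 0.0184). The median of the 21 was 0.00. With the acinar term the changes were 1.16 (adjusted p = 0.0987) for Txnip, 0.54 (adjusted p = 0.187) for Khk, 0.72 (adjusted p = 0.307) for Ppp1r3c and 0.51 (adjusted p = 0.357) for Angptl4. The call of Khk was lost without FST288 replicate 2 (adjusted p = 0.0549). The call of Ppp1r3c was lost without GFP replicates 1 or 3 or FST288 replicates 1 or 2 (adjusted p from 0.0877 to 0.13). The call of Angptl4 was lost without GFP replicates 1, 2 or 3 or FST288 replicates 1 or 2 (adjusted p from 0.0592 to 0.106).

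Csad, the decarboxylase that forms hypotaurine on the way to taurine, had the largest fall of the 22180 genes. It (transcript cluster 17322146) read 6.35, 6.66 and 6.44 on the GFP arrays and 4.48, 4.48 and 4.65 on the FST288 arrays. The 3 FST288 arrays lay close together, far below the GFP arrays, and it fell by 1.95 ± 0.10 (SE, adjusted p = 1.58e-06), 3.86-fold lower. Given the acinar term, it changed by -1.98 (adjusted p = 0.000337). Of 19 taurine and sulfur amino acid genes, 1 was higher and 2 were lower. Cdo1, the cysteine dioxygenase that acts just before Csad, changed by -0.29 ± 0.06 (SE, adjusted p = 0.021). Bhmt2, a homocysteine methyltransferase, changed by 0.47 ± 0.07 (adjusted p = 0.00873).

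Other amino acid enzymes moved too, some of them zonated along the liver lobule. Oat, the pericentral ornithine aminotransferase, read 10.11, 10.33 and 10.20 on the GFP arrays and 9.52, 9.47 and 9.41 on the FST288 arrays, and fell by 0.75 ± 0.07 (SE, adjusted p = 0.000278). Glul, pericentral glutamine synthetase, and Lect2, a pericentral hepatokine, changed by -0.38 ± 0.06 and -0.71 ± 0.10 (SE; adjusted p = 0.00771 and 0.00278). They were the 3 called of 21 pericentral genes, with a median of -0.14. Of the 21, 8 lay below and 1 above GFP without overlap, against 9.11% and 9.3% of all genes. Of 22 periportal genes, Etnppl, a phosphoethanolamine lyase, was lower and Gldc, of the glycine cleavage system, higher. Etnppl read 8.73, 8.81 and 8.92 on the GFP arrays and 7.98, 8.07 and 7.91 on the FST288 arrays, and fell by 0.84 ± 0.08 (SE, adjusted p = 0.000313), while Gldc changed by 0.59 ± 0.11 (adjusted p = 0.0186). The periportal median was 0.04.

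Glutathione genes were lower where called. Gclc and Gclm, the subunits of the first enzyme of glutathione synthesis, changed by -0.33 ± 0.07 and -0.36 ± 0.07 (SE; adjusted p = 0.0438 and 0.0237). Abcc3, a conjugate exporter of the same list, read 6.87, 7.05 and 7.0 on the GFP arrays and 6.25, 5.79 and 5.98 on the FST288 arrays, and fell by 0.96 ± 0.13 (SE, adjusted p = 0.00254). They were 3 of 26 genes, 0 of them higher, against 0.419% of all genes called lower and 0.577% higher. Without overlap, 7 of the 26 lay below and 3 above GFP, against 9.11% and 9.3% of all genes. With the acinar term the changes were -0.71 (adjusted p = 0.0236) for Oat, -0.86 (adjusted p = 0.0224) for Etnppl, -0.71 (adjusted p = 0.171) for Abcc3, -0.41 (adjusted p = 0.141) for Glul and -0.79 (adjusted p = 0.0525) for Lect2. Those of Cdo1, Bhmt2, Gldc, Gclc and Gclm had adjusted p of 0.307, 0.292, 0.441, 0.428 and 0.449. The call of Cdo1 was lost without GFP replicates 2 or 3 or FST288 replicates 1, 2 or 3 (adjusted p from 0.0537 to 0.119). The call of Bhmt2 was lost without GFP replicate 3 or FST288 replicate 2 (adjusted p from 0.0519 to 0.0608). The call of Glul was lost without GFP replicate 3 or FST288 replicate 3 (adjusted p from 0.05 to 0.0556). The call of Gldc was lost without GFP replicates 1 or 2 or FST288 replicates 2 or 3 (adjusted p from 0.0734 to 0.112). The calls of Gclc and Gclm were lost without any 1 of the 6 HFD arrays (adjusted p from 0.0602 to 0.188).

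Bile acid and drug-metabolism genes also split. Cyp8b1, the 12-alpha-hydroxylase that directs bile acids to cholic acid, read 8.20, 8.43 and 8.40 on the GFP arrays and 7.73, 7.84 and 7.84 on the FST288 arrays, and fell by 0.54 ± 0.08 (SE, adjusted p = 0.00602). Hsd3b7, an enzyme of the steroid ring step, read 7.79, 7.82 and 7.90 on the GFP arrays and 7.23, 7.25 and 7.33 on the FST288 arrays, and fell by 0.57 ± 0.08 (SE, adjusted p = 0.00266). Cyp2c70, which makes muricholic acids in mice, read 11.27, 10.96 and 11.25 on the GFP arrays and 11.89, 11.94 and 12.03 on the FST288 arrays, and rose by 0.79 ± 0.09 (SE, adjusted p = 0.000973). The groups did not overlap in any of the 3. Abcb11, the bile salt export pump, changed by 0.42 ± 0.08 (SE, adjusted p = 0.0262), so that 2 of 28 bile acid genes were higher and 3 lower, with Abcc3. Without overlap, 13 of the 28 lay above and 7 below GFP, against 9.3% and 9.11% of all genes.

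Of 46 drug-metabolising enzymes, 15 lay above and 6 below GFP without overlap, against 9.3% and 9.11% of all genes. Called were 6 higher and 1 lower, against 0.577% and 0.419% of all genes. The lower one, Cyp3a11, the main mouse CYP3A enzyme, read 8.67, 8.75 and 8.47 on the GFP arrays and 7.82, 7.81 and 7.74 on the FST288 arrays, and fell by 0.84 ± 0.08 (SE, adjusted p = 0.000243). Cyp2c29, another P450, read 10.76, 10.74 and 10.71 on the GFP arrays and 11.32, 11.25 and 11.24 on the FST288 arrays, and rose by 0.53 ± 0.06 (SE, adjusted p = 0.000683), but over the mean of its clusters it had a change of 0.25 (adjusted p = 0.237). Sult1a1, a phenol sulfotransferase, read 10.04, 10.20 and 10.01 on the GFP arrays and 10.78, 10.63 and 10.65 on the FST288 arrays, and rose by 0.60 ± 0.07 (SE, adjusted p = 0.00139). Both higher genes were tight within each group. Ugt2b1, a glucuronosyltransferase, and Aldh1a1, a retinaldehyde dehydrogenase, changed by 0.41 ± 0.05 and 0.56 ± 0.07 (SE; adjusted p = 0.00252 and 0.000973). Ugt2b37 and Aldh1a7 changed by 1.69 ± 0.37 and 0.60 ± 0.10 (adjusted p = 0.048 and 0.0136). Families such as Cyp2c, Ugt2b and Cyp4a hold near-identical copies, whose probes may not be specific.

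After the acinar term was added, Cyp3a11 (-0.82, adjusted p = 0.0216), Cyp2c29 (0.58, adjusted p = 0.0224), Sult1a1 (0.70, adjusted p = 0.0224) and Ugt2b1 (0.48, adjusted p = 0.0279) were called. Cyp8b1 (-0.61, adjusted p = 0.0865), Hsd3b7 (-0.60, adjusted p = 0.0793), Cyp2c70 (0.75, adjusted p = 0.0576) and Aldh1a1 (0.44, adjusted p = 0.0748) were not, and neither were Abcb11, Ugt2b37 and Aldh1a7 (adjusted p = 0.515, 0.515 and 0.369). The call of Abcb11 was lost without GFP replicates 1 or 2 or FST288 replicates 2 or 3 (adjusted p from 0.112 to 0.15). The call of Ugt2b37 was lost without any 1 of the 6 HFD arrays or LTKO GFP replicates 1 or 2 (adjusted p from 0.0564 to 0.199). The call of Aldh1a7 was lost without GFP replicates 1 or 3 or FST288 replicates 2 or 3 (adjusted p from 0.0567 to 0.0925).

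Of these P450 genes, Cyp3a11 and Cyp8b1, which fell, and Cyp2c70 and Cyp2c68, which rose, share the HNF4 site CAAAGTCCA, a binding site of the hepatocyte nuclear receptor HNF4-alpha, within 250 bases before their starts. Their sequences are printed to show that the same site lies before genes that moved in opposite directions, from RefSeq on GRCm38.p6, 5′ to 3′ on the gene's strand, with the site in capitals (Cyp3a11 chr5:145879855-145880104, minus strand; Cyp8b1 chr9:121916306-121916555, minus strand; Cyp2c70 chr19:40187287-40187536, minus strand; Cyp2c68 chr19:39741102-39741351, minus strand).
Cyp3a11: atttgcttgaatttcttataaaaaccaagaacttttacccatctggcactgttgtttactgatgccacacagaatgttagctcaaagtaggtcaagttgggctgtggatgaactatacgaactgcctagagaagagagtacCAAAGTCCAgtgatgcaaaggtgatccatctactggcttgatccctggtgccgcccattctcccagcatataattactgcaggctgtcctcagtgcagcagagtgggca
Cyp8b1: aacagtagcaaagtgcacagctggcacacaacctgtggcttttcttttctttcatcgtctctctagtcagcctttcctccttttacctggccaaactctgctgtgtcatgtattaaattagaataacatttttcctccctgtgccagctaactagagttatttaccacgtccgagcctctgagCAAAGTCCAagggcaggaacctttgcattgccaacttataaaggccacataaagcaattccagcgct
Cyp2c70: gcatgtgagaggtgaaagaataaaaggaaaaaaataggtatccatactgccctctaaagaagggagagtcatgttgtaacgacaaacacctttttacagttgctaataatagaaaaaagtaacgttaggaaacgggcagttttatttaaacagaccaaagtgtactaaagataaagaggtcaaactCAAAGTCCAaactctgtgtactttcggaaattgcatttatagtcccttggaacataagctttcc
Cyp2c68: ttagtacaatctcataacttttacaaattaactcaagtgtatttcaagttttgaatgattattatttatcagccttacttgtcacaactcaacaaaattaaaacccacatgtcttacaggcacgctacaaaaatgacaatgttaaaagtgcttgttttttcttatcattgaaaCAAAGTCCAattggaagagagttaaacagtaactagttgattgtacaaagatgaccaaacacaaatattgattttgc
The site begins 109 bases before the Cyp3a11 start, 67 before Cyp8b1, 64 before Cyp2c70 and 77 before Cyp2c68, on the coding strand of each. Searched on both strands, it was in 2 of 60 lower (3.33%) and 2 of 97 higher genes (2.06%), and in 0.451% of all 27025 genes with a window. The shares over all genes, here and for the sterol core, were not limited to genes expressed in liver. The site was 1 of 18 motifs searched, and enrichment was not tested. Cyp2c68, chosen after its values were seen, read 8.45, 8.55 and 8.58 on the GFP arrays and 9.26, 9.20 and 9.39 on the FST288 arrays, and rose by 0.75 ± 0.09 (SE, adjusted p = 0.000973), with no overlap. The shorter SMAD letters CAGACA, also searched on both strands, were in 13 of 60 lower genes (21.7%), 17 of 97 higher genes (17.5%) and 19.3% of all genes.

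Transcription factors with the largest rises were Onecut1, Zbtb16 and E2f8. Onecut1, or HNF6, a hepatocyte factor, read 7.28, 7.06 and 6.89 on the GFP arrays and 8.89, 8.23 and 8.73 on the FST288 arrays, and rose by 1.54 ± 0.22 (SE, adjusted p = 0.00469), 2.91-fold higher. Zbtb16, or PLZF, a repressor induced by glucocorticoids, read 4.82, 4.33 and 4.99 on the GFP arrays and 6.39, 6.05 and 6.04 on the FST288 arrays, and rose by 1.45 ± 0.18 (SE, adjusted p = 0.00144). E2f8, an atypical E2F tied to polyploid hepatocytes, read 4.99, 4.77 and 5.29 on the GFP arrays and 6.47, 6.47 and 6.28 on the FST288 arrays, and rose by 1.39 ± 0.16 (SE, adjusted p = 0.000973). All FST288 arrays lay above all GFP arrays in each of the 3, and each kept its call with the acinar term (1.87, adjusted p = 0.0306; 1.67, adjusted p = 0.0224; 1.44, adjusted p = 0.0368). Onecut1 and Zbtb16 were the 2 called of 35 liver transcription factors, and E2f8 the 1 called of 41 cell cycle genes, whose median was -0.03.

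The lists of alpha-macroglobulins and serpins and of IGF and hepatokine genes held called members in both directions. Itih3, an inter-alpha-trypsin inhibitor chain, read 9.31, 9.34 and 9.33 on the GFP arrays and 8.49, 8.67 and 8.57 on the FST288 arrays, and fell by 0.75 ± 0.07 (SE, adjusted p = 0.000278). Igfbp2, an IGF-binding protein, read 7.74, 7.51 and 7.68 on the GFP arrays and 6.83, 6.65 and 6.99 on the FST288 arrays, and fell by 0.82 ± 0.10 (SE, adjusted p = 0.00111). Mug2, a murinoglobulin protease inhibitor, changed by -1.89 ± 0.30 (SE, adjusted p = 0.00838). Mug-ps1, by its symbol a pseudogene of that family, changed by -1.87 ± 0.25 (SE, adjusted p = 0.00254). The near-identical sequences of Mug2 and Mug-ps1 mean that the clusters may not be separate. Itih2 changed by -0.35 ± 0.06 (adjusted p = 0.0155), and Serpina10, an inhibitor of clotting factors, by 0.49 ± 0.10 (adjusted p = 0.0286). Of 26 genes on the alpha-macroglobulin and serpin list, which counts Mug-ps1, 1 was higher and 4 lower. Of 25 IGF and hepatokine genes, 1 was higher (Angptl4) and 3 lower (Igfbp2, Lect2 and Ahsg). Ahsg, the plasma protein fetuin-A, and Ttr, the thyroxine carrier, both also hepatocyte markers, changed by -0.28 ± 0.05 and -0.39 ± 0.06 (adjusted p = 0.0152 and 0.00877).

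In all, 4 of 11 hepatocyte markers were lower and 0 higher, against 0.419% and 0.577% of all genes. The median of the 11 was -0.05. Without overlap, 4 lay below and 2 above GFP, against 9.11% and 9.3% of all genes, so the markers did not fall as a set. For the 4 lower genes, fewer hepatocytes in a sample and less RNA of that gene per cell cannot be told apart in bulk tissue. The fit with the acinar term gave -0.85 (adjusted p = 0.00816) for Itih3, -0.76 (adjusted p = 0.073) for Igfbp2, -1.40 (adjusted p = 0.171) for Mug-ps1, -1.46 (adjusted p = 0.357) for Mug2 and 0.26 (adjusted p = 0.706) for Serpina10. For Itih2, Ahsg and Ttr the adjusted p was 0.438, 0.203 and 0.382. The call of Mug2 was lost without GFP replicate 3 or FST288 replicate 2 (adjusted p from 0.0519 to 0.0535). The call of Itih2 was lost without GFP replicates 1 or 3 or FST288 replicates 2 or 3 (adjusted p from 0.0551 to 0.0958). The call of Serpina10 was lost without GFP replicates 2 or 3 or FST288 replicates 2 or 3 (adjusted p from 0.111 to 0.151). The call of Ahsg was lost without GFP replicates 2 or 3 or FST288 replicates 1 or 3 (adjusted p from 0.0526 to 0.119). The call of Ttr was lost without FST288 replicates 2 or 3 (adjusted p from 0.0586 to 0.0719).

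Mitochondrial carriers, cytokine receptors and growth factor feedback genes gave smaller groups. Slc25a30, an inner-membrane carrier, read 6.46, 6.13 and 6.40 on the GFP arrays and 7.76, 7.36 and 7.63 on the FST288 arrays, and rose by 1.25 ± 0.12 (SE, adjusted p = 0.000256), keeping its call with the acinar term (1.46, adjusted p = 0.0036). Slc25a13, the aspartate-glutamate carrier, and Slc25a17, a peroxisomal carrier, changed by 0.34 ± 0.07 and 0.53 ± 0.11 (SE; adjusted p = 0.0328 and 0.0366), and 0 of 27 carriers were lower. Il1r1, the interleukin-1 receptor, read 7.43, 6.85 and 7.23 on the GFP arrays and 8.13, 8.13 and 8.10 on the FST288 arrays, and rose by 0.95 ± 0.12 (SE, adjusted p = 0.0025). Its FST288 arrays were nearly equal and above all GFP arrays. Steap4, a metalloreductase induced by cytokines, changed by 0.67 ± 0.13 (adjusted p = 0.0262), so that with Hamp 2 of 29 acute phase genes were higher and 1 lower.

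Dusp6 and Spry4, feedback inhibitors of ERK signalling, changed by 0.82 ± 0.16 and 0.67 ± 0.14 (SE; adjusted p = 0.0226 and 0.0321) as the 2 called of 26 such genes, though Dusp6 had a change of 0.40 over the mean of its clusters (adjusted p = 0.288). Eda2r, a TNF-receptor-family p53 target, changed by 0.85 ± 0.18 (adjusted p = 0.0418) and with Cdkn1a made up the 2 called of 22 p53 targets. Of 32 genes that depend on sex or growth hormone, 4 were higher and 0 lower: Cyp4a12a, Cish, C8b and Cyp17a1. Without overlap, 10 of the 32 lay above and 4 below GFP, against 9.3% and 9.11% of all genes. Cish, a STAT5 feedback inhibitor, changed by 0.65 ± 0.11 (adjusted p = 0.0152), but the change was 0.44 over the mean of its clusters (adjusted p = 0.157). C8b, a complement component, changed by 0.44 ± 0.09 (adjusted p = 0.0392), and Cyp17a1, a steroid hydroxylase, by 1.16 ± 0.21 (adjusted p = 0.0173). Akr1c14, a hydroxysteroid dehydrogenase, changed by 0.48 ± 0.07 (adjusted p = 0.00687); with it, Cyp17a1 and Hsd3b7, 2 of 24 steroid-converting enzymes were higher and 1 lower.

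Under the model with the acinar term, none of Slc25a13, Slc25a17, Steap4, Dusp6, Spry4, Eda2r, Cish, C8b, Cyp17a1, Akr1c14 and Il1r1 was called (lowest adjusted p = 0.083, Il1r1). The calls of Slc25a13, Slc25a17, Dusp6, Spry4 and C8b were lost without any 1 of the 6 HFD arrays (adjusted p from 0.0568 to 0.184). The call of Eda2r was lost without any 1 of the 6 HFD arrays or LTKO GFP replicates 1 or 2 (adjusted p from 0.0538 to 0.186). The calls of Steap4 and Cish were lost without GFP replicates 1, 2 or 3 or FST288 replicates 2 or 3 (adjusted p from 0.0552 to 0.144). The call of Cyp17a1 was lost without GFP replicates 1 or 3 or FST288 replicates 1 or 3 (adjusted p from 0.0562 to 0.0887). The call of Akr1c14 was lost without FST288 replicate 3 (adjusted p = 0.0556).

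**Figure D4:**
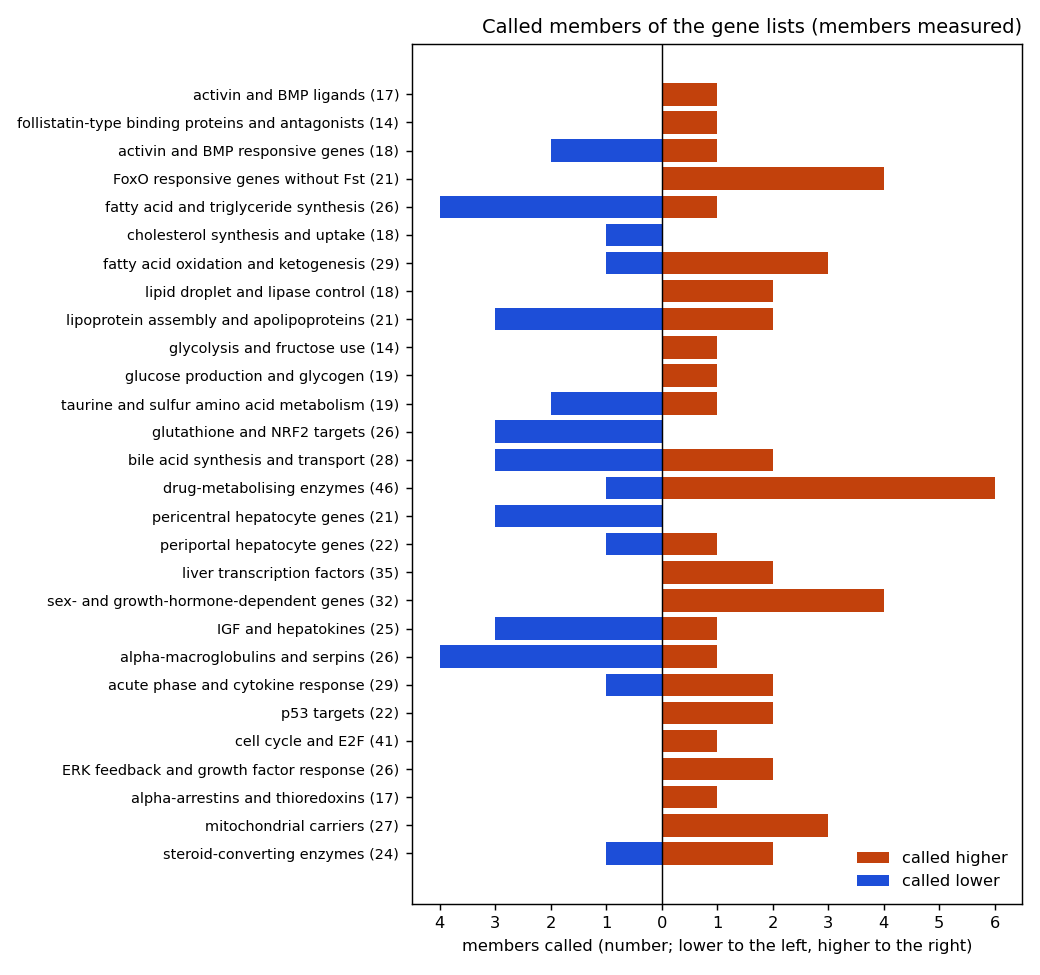
Number of called members of each pathway list that held at least 1, with lower genes to the left and higher genes to the right of 0 and the number of measured members in parentheses. No list exceeds 7 called members, the 6 higher and 1 lower of the 46 drug-metabolising enzymes.

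Several lists held 0 called genes by limma. Of 33 genes of oxidative phosphorylation, the respiratory chain, 17 lay above GFP without overlap and 0 below, against 9.3% and 9.11% of all genes. Their median was 0.17, with changes from -0.10 to 0.58. The 2 with the lowest p, Sdhd and Ndufa9, had changes of 0.30 ± 0.07 and 0.28 ± 0.08 (SE; adjusted p = 0.0812 and 0.151). Of 28 endoplasmic reticulum chaperone genes 4 lay above and 0 below, with a median of 0.12 that was 0.15 on FST288 replicates 2 and 3, -0.02 on replicate 1 and -0.02 with the acinar term. Ern1 and Xbp1, the sensor and transcription factor of the unfolded protein response, had changes of 0.49 ± 0.11 and 0.35 ± 0.08 (adjusted p = 0.056 and 0.0677). The integrated stress response (24 genes, median 0.04), the circadian clock (18 genes, -0.11) and interferon-stimulated genes (25 genes, 0.06) likewise held 0. At an unadjusted p under 0.05 there were 13 members of oxidative phosphorylation, 4 chaperone genes, 1 of the integrated stress response, 2 clock genes and 4 interferon-stimulated genes. Fgf21, a fasting hepatokine, had a change of -0.10 ± 0.32 (adjusted p = 0.945).

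Small RNA genes were grouped as families by symbol, and those named here were chosen after their values were seen. Of 483 microRNA genes 7 were lower and 0 higher, and 70 lay below and 23 above GFP without overlap. Over all genes 0.419% were called lower, and 9.11% lay below and 9.3% above without overlap. The median change of the 483 was -0.06. Their median level was 1.98 to 2.13 on the 6 HFD arrays, against 3.1 to 3.14 over all genes. Most of the family thus lay near the lower end of the scale, and its counts are not read as a microRNA response. The mature sequences of 3 of the 7 are printed from RefSeq on GRCm38.p6, because Mir210 had the lowest p and the let-7 members share a seed (bases 2 to 8, in capitals).
miR-210-3p: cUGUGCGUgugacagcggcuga
let-7c-5p: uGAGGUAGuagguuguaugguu
miR-98-5p: uGAGGUAGuaaguuguauuguu
They lie at chr7:141221407-141221428 on the minus strand, and at chr16:77599672-77599693 and chrX:151913229-151913250 on the plus strand. The arrays read a transcript cluster at each gene and do not measure the mature form. Mir210, known as a hypoxia-responsive gene, read 6.29, 5.92 and 5.67 on the GFP arrays and 5.04, 5.06 and 4.92 on the FST288 arrays, and fell by 0.95 ± 0.14 (SE, adjusted p = 0.00597). Mirlet7c-1 read 2.27, 2.28 and 2.12 on the GFP arrays and 1.73, 1.49 and 1.66 on the FST288 arrays, and Mir98 read 2.77, 2.34 and 2.83 on the GFP arrays and 2.03, 1.91 and 1.82 on the FST288 arrays. The others were Mir425, Mir1983, Mir466h and Mir669a-3, with changes of -0.83, -0.62, -1.18 and -1.02. Both let-7 members, Mir1983 and Mir669a-3 lay near the lower end of the scale, with group means below the median gene, where a change is not an exact measure. The call of Mir425 was lost without GFP replicates 1, 2 or 3 or FST288 replicates 2 or 3 (adjusted p from 0.09 to 0.171). The calls of Mir1983 and Mir98 were lost without GFP replicates 1 or 3 or FST288 replicates 2 or 3 (adjusted p from 0.0505 to 0.145). The call of Mirlet7c-1 was lost without any 1 of the 6 HFD arrays (adjusted p from 0.056 to 0.186). The call of Mir466h was lost without FST288 replicates 2 or 3 (adjusted p from 0.0513 to 0.0556). The call of Mir669a-3 was lost without GFP replicates 1 or 2 or FST288 replicates 2 or 3 (adjusted p from 0.0875 to 0.145). Mir210 was called when any 1 of the 10 arrays was left out. In LTKO livers FST288 gave changes of -0.29 for Mir210 and -0.23 for Mir425. Those of Mir466h, Mir669a-3, Mir1983, Mirlet7c-1 and Mir98 were 0.85, 0.46, 0.42, 0.31 and 0.29 there. None of the 7 was called in LTKO livers by limma. The difference between the backgrounds was called for Mir466h and Mir1983 (limma, adjusted p = 0.0202 and 0.0347).

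Of 78 small nucleolar RNA genes, guides of ribosomal RNA modification, 8 were higher and 0 lower, with a median of 0.20, and 0.577% of all genes were called higher. Without overlap, 28 of the 78 lay above and 3 below GFP, against 9.3% and 9.11% of all genes. The called genes ran from Snora33 (0.31 ± 0.06, adjusted p = 0.0187) to Snord111 (1.16 ± 0.18, adjusted p = 0.00721). Snord111 read 4.54, 4.96 and 4.72 on the GFP arrays and 6.0, 6.05 and 5.67 on the FST288 arrays. In the fit with the acinar term, limma called 0 members of either family (46 microRNA and 18 small nucleolar RNA genes at an unadjusted p under 0.05; adjusted p = 0.174 for Mir210 and 0.171 for Snord111), the median of the 78 was 0.14, and Mir425, Mir1983 and Mir466h stood at -0.41 (adjusted p = 0.727), -0.40 (adjusted p = 0.507) and -0.73 (adjusted p = 0.357). Over the mean of its clusters Snora33 had a change of 0.08 (adjusted p = 0.782). The call of Snord111 was lost without FST288 replicate 2 (adjusted p = 0.0513). The call of Snora33 was lost without any 1 of the 6 HFD arrays (adjusted p from 0.0514 to 0.102).

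The same vector in LTKO livers shows how far the HFD changes recur in another background. No array is shared between the comparisons, but the fit gives them 1 estimate of the spread. Of the 221 genes, 147 (66.5%) had a change of the same sign in LTKO livers, against 46.2% of all genes. The median LTKO change of the 221 in the HFD direction was 0.08, against 0.67 in HFD livers, the contrast in which the genes were chosen. In LTKO livers 37 genes (0.167%) were called, 22 higher (0.0992%) and 15 lower (0.0676%), and 8 of the 221 were called in the same direction: Fst, Csad, Etnppl and Gclc by the naming rule, and 9030619P08Rik, Aox3, Ccl9 and Tcf24 chosen after their values were seen.

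Fst read 5.39 and 5.30 with GFP and 6.85 and 6.74 with FST288 on the LTKO arrays, a change of 1.45 ± 0.23 (SE, adjusted p = 0.0307). Csad read 9.28 and 9.23 with GFP and 8.30 and 8.10 with FST288, and Etnppl 10.10 and 9.93 with GFP and 8.96 and 9.13 with FST288. These fell in LTKO as in HFD livers, by 1.05 ± 0.13 and 0.97 ± 0.10 (adjusted p = 0.00533 and 0.00137). Srebf1 read 5.64 and 5.81 with GFP and 5.47 and 5.66 with FST288, a change of -0.16 ± 0.17 (adjusted p = 0.823), and its difference between the backgrounds was 1.01 ± 0.22 (adjusted p = 0.0882), which did not pass the test. The GFP livers themselves stood higher in LTKO than in HFD mice for Csad and lower for Srebf1 and Hmgcs1, as their values show, a difference not tested here.

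The difference itself, LTKO minus HFD change, was called for 48 genes (0.216%), of which 27 were among the 221. Oat read 11.09 and 10.97 with GFP and 11.09 and 11.25 with FST288 in LTKO livers (0.89 ± 0.12, adjusted p = 0.00924), and Cyp4a12a read 7.06 and 6.84 with GFP and 7.10 and 6.91 with FST288 (-1.27 ± 0.17, adjusted p = 0.0112). Hmgcs1 read 8.60 and 8.72 with GFP and 8.51 and 8.68 with FST288 (0.80 ± 0.12, adjusted p = 0.0227). In these genes the LTKO FST288 arrays stood close to or among the LTKO GFP arrays, while the HFD groups were apart. Slc25a30 (-1.30 ± 0.19, adjusted p = 0.019), Itih3 (0.70 ± 0.12, adjusted p = 0.0351) and Il1r1 (-1.12 ± 0.20, adjusted p = 0.0441) also differed. For Csad the fall was smaller in LTKO livers (0.90 ± 0.16, adjusted p = 0.0495). The count of 48 was 4 with the acinar term, 1 without FST288 replicates 2 and 3, and 11 to 266 when 1 array was left out: 15, 13 and 15 as HFD GFP replicates 1, 2 and 3 were dropped, and 85, 14 and 11 as HFD FST288 replicates 1, 2 and 3 were. Dropping LTKO GFP replicates 1 and 2 gave 44 and 30, and dropping LTKO FST288 replicates 1 and 2 gave 266 and 42.

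**Figure D5:**
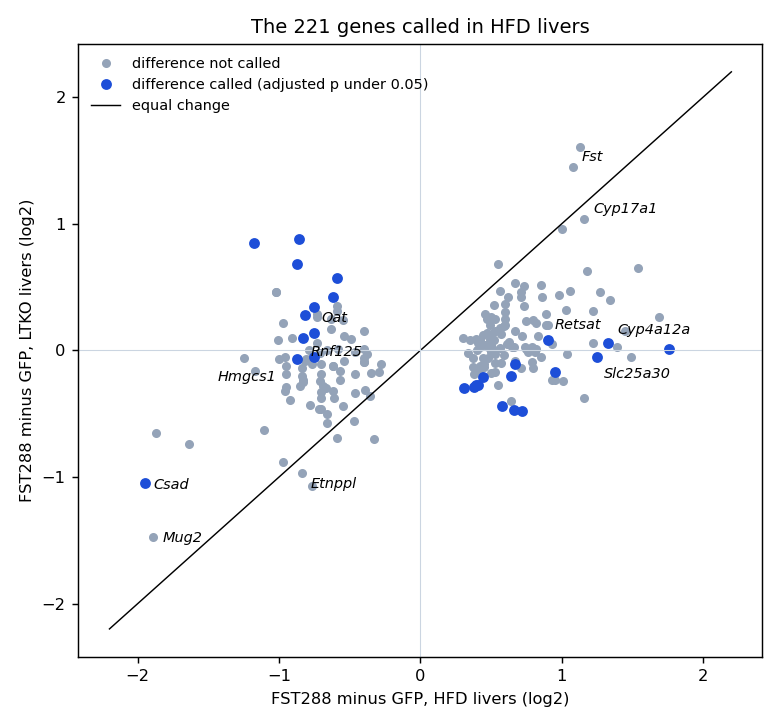
Change with FST288 (log2, FST288 minus GFP) in HFD livers on the horizontal axis and in LTKO livers on the vertical axis for the 221 genes called in HFD livers, with a line of equal change. The 27 genes whose difference was called are blue; Csad, Etnppl and Fst lie on the same side of 0 on both axes, and Oat and Cyp4a12a lie near 0 on the LTKO axis.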

How the data were processed

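Liver RNA was hybridised to Affymetrix whole-transcript arrays, 1 for each of 10 samples. Per the submitters' processing notes, the authors made the deposited values in Affymetrix Expression Console by RMA, which subtracts background, brings arrays to a common distribution and summarises the probes of a transcript cluster. The deposited table holds log2 values. Its log base is not written out, and log2 was inferred from RMA and from the range, 0.64 to 13.21. It has 41345 clusters per array, of which 23521 carried 1 gene symbol in the supplied annotation. For 1082 genes with several clusters the brightest was kept, which left 22180 genes with no filter on dim ones. Arrays give no counts, and their number limits the precision.

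In R 4.3.3, limma 3.58.1 (lmFit and eBayes with an intensity trend) estimated a mean for each group from the 10 arrays together, with 6 residual and 7.155 prior degrees of freedom. FST288 was set against GFP within HFD and within LTKO livers, and these changes were subtracted from each other. Two-sided p-values were corrected by the Benjamini-Hochberg method across the 22180 genes, with calls at an adjusted p under 0.05. Errors of changes are standard errors of the fit. The procedure was tested on simulated data. The 35 pathway and 15 marker lists, the comparison and the rule for named genes were chosen with earlier results of these data known. The rule took the 15 largest called rises and falls without predicted loci, small RNA and receptor families, the called members of each pathway list or else the 2 with the smallest p, 16 fixed genes and the acinar markers. Alternatives changed the arrays fitted, the variance moderation, weights, normalization, dim-gene filters, clusters, thresholds, a replicate block and the acinar term, which is the mean of the 27 acinar markers per array. Counts over lists with the acinar term were added after the data were seen. Promoter and microRNA sequences came from RefSeq tables on GRCm38.p6, with an upstream window for 157 of the 221 called genes, and 18 motifs were searched.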

Additional observations from a re-analysis of the deposited data

Results flagged for a closer look

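For 10 named genes the effect of FST288 differed between LTKO and HFD livers (limma, adjusted p under 0.05 for the difference, given as the LTKO change minus the HFD change on the log2 scale). The difference was above 0 for Resf1, a silencing factor of endogenous retroviruses, at 1.74, and for Nipal1, a magnesium transporter, at 1.55. It was 0.90 for Csad, 0.89 for Oat, 0.80 for Hmgcs1 and 0.70 for Itih3. It was below 0 for Slc25a30 at -1.30, Cyp4a12a at -1.27, Il1r1 at -1.12 and Ern1 at -1.08. All but Ern1 were called in HFD livers. The labels give no diet for LTKO mice, so background and diet cannot be told apart. FST288 replicates 2 and 3 of the HFD livers carried acinar transcripts, and with the acinar term 4 differences were called over all genes in place of 48.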

How the results depend on the processing

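The count of genes called in HFD livers, 221, was 411 with the 6 HFD arrays alone, 101 without the intensity trend, 365 over genes above a log2 value of 5, 80 over all transcript clusters, 405 at an adjusted p under 0.1, 141 with a change of at least 1.5-fold, 35 with the acinar term and 6 without HFD FST288 replicates 2 and 3. Leaving out 1 array gave 80 to 307. The 48 genes called for the difference between backgrounds were 3 without the trend, 90 above a log2 value of 5, 6 over all clusters, 155 at an adjusted p under 0.1, 4 with the acinar term and 1 without those replicates, and leaving out 1 array gave 11 to 266. With the replicate number as a block, 179 genes were called in HFD livers and 28 for the difference. The labels do not say whether equal numbers pair the arrays. Deviations of same-numbered HFD arrays from their group means correlated at 0.008, -0.007 and -0.010, and those of other pairs at -0.029 to 0.041. These correlations include all dim genes, so they cannot exclude a pairing. The other alternatives kept both counts within 1.5 times. The 80 named genes called in HFD livers kept their direction in each alternative fit that included them. Their FST288 and GFP arrays did not overlap, so fits that only leave out arrays could not reverse a direction. The kept direction is therefore no separate check in those fits. The fits above a log2 value of 5 and above the median gene included 71 and 78 of the 80 genes, and the fit over all transcript clusters was read for its counts alone. Of them 59 lost their call with the acinar term, 75 without FST288 replicates 2 and 3, 40 without the trend and 18 with the block. The cause of these differences was not tested, beyond fewer arrays or features in the fits that leave some out. Acinar level was high on FST288 replicates 2 and 3 alone, so the fit with that term separates it from FST288 with less precision. A call could then be lost at an equal change, as for Cdkn1a, at 1.27 in both fits (limma, adjusted p = 0.031 and 0.43).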

Other observations

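Some genes outside the lists were among those whose call survived leaving out any 1 of the 10 arrays; they were chosen after their values were seen. Retsat, which saturates retinol, read 8.34, 8.30 and 8.42 on the GFP arrays and 9.21, 9.26 and 9.29 on the FST288 arrays, and rose by 0.90 ± 0.07 (SE, adjusted p = 5.59e-05). Dmgdh, the mitochondrial dimethylglycine dehydrogenase, read 9.40, 9.32 and 9.36 on the GFP arrays and 10.01, 10.09 and 10.01 on the FST288 arrays, and rose by 0.67 ± 0.06 (SE, adjusted p = 0.000256). Rnf125, a ubiquitin ligase that dampens RIG-I signalling, read 9.69, 9.56 and 9.65 on the GFP arrays and 8.80, 8.83 and 8.78 on the FST288 arrays, and fell by 0.83 ± 0.07 (SE, adjusted p = 0.000179). In each the FST288 arrays lay close together and apart from the GFP arrays. All 3 were called with the acinar term (adjusted p = 0.00541, 0.0224 and 0.014), and all 3 differed between LTKO and HFD livers (adjusted p = 0.00924, 0.00924 and 0.00924).

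Other genes, also chosen after their values were seen except for those of the naming rule, moved in both directions. Acat1, the mitochondrial acetoacetyl-CoA thiolase, changed by -0.70 ± 0.10 (SE, adjusted p = 0.00475), and Ppm1k, the phosphatase that activates branched-chain ketoacid dehydrogenase, by -0.70 ± 0.10 (adjusted p = 0.00309). Bdh2, a short-chain dehydrogenase, changed by 0.89 ± 0.12 (adjusted p = 0.00368). Elovl2, which lengthens polyunsaturated fatty acids, changed by -0.46 ± 0.07 (adjusted p = 0.00439). Colec12, a scavenger receptor of the naming rule, changed by -1.0 ± 0.11 (adjusted p = 0.000829). Of these 5, Colec12 was called with the acinar term (adjusted p = 0.0368); for Acat1, Ppm1k, Bdh2 and Elovl2 the adjusted p was 0.232, 0.133, 0.182 and 0.274. Mcm10, a DNA replication factor, read 5.72, 5.58 and 5.48 on the GFP arrays and 6.64, 6.07 and 6.46 on the FST288 arrays, and Abhd17b, a depalmitoylase, read 6.32, 6.22 and 6.22 on the GFP arrays and 7.27, 6.91 and 6.96 on the FST288 arrays. The call of Mcm10 was lost without GFP replicates 2 or 3 or FST288 replicates 1 or 3 (adjusted p from 0.0501 to 0.0925). The call of Abhd17b was lost without GFP replicate 3 (adjusted p = 0.0506).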
